A study of Mus musculus with 6 samples.

Results

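The genes that write, read and erase marks on histones and DNA were compared between Sertoli cells that kept *Pa1* and Sertoli cells from which it had been deleted. The set holds 98 protein-coding genes of the 28262 genes in the deposited count table. They were chosen by a rule on gene names that uses no measured value: the Kmt, Kdm, Setd, Hdac, Sirt, Kat, Prmt, Dnmt, Ezh and Cbx families, *Tet1*, *Tet2*, *Tet3*, and *Eed*, *Suz12*, *Uhrf1*, *Nsd1*, *Ash1l*, *Dot1l*, *Ehmt1* and *Ehmt2*. *Kmt2c*, *Kmt2d* and *Kdm6a*, the catalytic enzymes of the complexes that hold PA1, were left out by that rule. Of the 98 genes, 5 matched the letters Kat by name alone. These genes, *Katnal1* and *Katnbl1* among them, encode or resemble katanin, which severs microtubules, and do not act on chromatin. The other 93 genes encode enzymes or readers of chromatin, some of which also act on proteins outside the nucleus.

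RNA-seq was performed on Sertoli cells purified from testes of C57BL/6 mice at 20 days of age, with 3 libraries from Pa1F/F mice and 3 from Amh-pa1-/- mice. Pa1F/F mice carried loxP-flanked *Pa1* and served as controls, and Amh-pa1-/- mice carried the same floxed alleles together with *Amh-cre*, in which the *Amh* promoter expresses Cre recombinase in Sertoli cells. The cells received no treatment and were held in culture after purification, and the labels do not say how many mice gave each library. *Pa1* itself was not analysed here, and genotypes are those that the labels give.

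A lysine methyltransferase adds methyl groups to histone tails and a lysine demethylase removes them. Methylation of H3K4 is found at active promoters and enhancers, that of H3K27 by Polycomb repressive complex 2 (PRC2) at silenced genes, and that of H3K9 in heterochromatin. Acetyltransferases and deacetylases set histone acetylation, while DNMT proteins methylate cytosines and TET proteins oxidise the methyl group. PA1 is a subunit of the MLL3/MLL4 complexes, which methylate H3K4. Sertoli cells divide before puberty and then stop as they mature to nurse the germ cells.

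Total counts ranged from 13203757 to 16231443 per library. The first principal component (67.2% of the variance) separated the genotypes, and the second (17.2%) set Amh-pa1-/- replicate 3 apart from Amh-pa1-/- replicates 1 and 2. The Sertoli cell genes *Sox9*, *Wt1*, *Gata4* and *Clu* were present in every library, while *Trf* and *Rhox5* reached at most 6.01 and 15.5 normalized counts. The summed level of 14 Sertoli markers was 16950 to 17264 CPM (counts scaled to the same total in every library) in Pa1F/F and 10329 to 13254 CPM in Amh-pa1-/- libraries. Markers of other cells also moved. The 5 peritubular myoid markers went from 214-272 to 825-1218 CPM, the 6 Leydig markers from 794-911 to 165-288 CPM, the 9 macrophage markers from 125-137 to 75.8-93.9 CPM and the endothelial markers (4 of 5 present) from 115-121 to 61.8-99.7 CPM. The macrophage sum was mostly *Mrc1*, which did not pass (945 to 1022 against 932 to 1216 normalized counts), while 5 of the 7 macrophage markers tested (*Lyz2*, *Adgre1*, *Csf1r*, *Cd14* and *Cd68*) fell by 1.65 to 3.38 on the log2 scale. Of the myoid list only *Acta2* passed the test (2537 to 3239 against 11886 to 15383 normalized counts), while *Myh11* went from 481-649 to 216 and 164 in Amh-pa1-/- replicates 1 and 2 and 1605 in replicate 3, and *Des* from 93.0-139 to 43.9, 46.2 and 485. The endothelial sum was mostly *Cdh5*, which fell (1565 to 1599 against 811 to 967 normalized counts), and *Pecam1* fell as well. *Kdr* went from 62.5-99.7 to 80.0, 74.4 and 485 in Amh-pa1-/- replicates 1, 2 and 3 and did not pass. *Cyp17a1* and *Insl3* of the Leydig list and *Emcn* and *Tie1* of the endothelial list were at or under the floor of 3 counts or absent from the table. Germ cell markers summed to 193 to 218 CPM against 108 to 201 CPM, nearly all of it *Uchl1*, and 9 of 17, among them *Stra8*, *Zbtb16* and *Prm1*, were at or under that floor or absent from the table. Of the 3 germ cell markers tested only *Ddx4* passed, as lower and at few counts. It had 13.6 to 21.7 against 1.95 to 7.89 normalized counts (edgeR adjusted p = 0.0373). In bulk RNA, fewer cells of a type and less RNA per cell cannot be told apart, and the part of these cell types in the results below was not tested.

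The modifying enzymes changed about as often as other genes and by less. Of 97 members with enough counts to be tested, 16 were higher and 21 lower in Amh-pa1-/- cells, or 38.1%, at an adjusted p under 0.05 in edgeR's quasi-likelihood test, beside 35.3% of all 14919 tested genes (18.2% higher, 17.1% lower). Only *Uhrf1* and *Kdm7a* also passed an absolute log2 fold change of 1, the second threshold of the study, or 2.06% of the members beside 12.0% of all tested genes. By direction, *Uhrf1* was 1 of 97 members past both as higher, beside 5.44% of all tested genes, and *Kdm7a* 1 of 97 as lower, beside 6.56%. A log2 fold change here is Amh-pa1-/- over Pa1F/F. Its median was -0.07 over the members and 0.00 over all tested genes, and its median size was 0.20 against 0.30. In 84 of 97 members (86.6%) the size was under 0.5, which held for 67.1% of all tested genes. The genotypes did not overlap in 60 of 97 members (61.9%), beside 52.4% of all tested genes. The members were more abundant than most genes, with a median of 819 normalized counts (counts scaled to a common library size) against 341. The remaining gene, *Prmt8*, had 0 to 4 counts per library and was not tested.

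Many of the smaller changes lost their call with fewer libraries. With each library left out in turn, the members called numbered 21 without Pa1F/F replicate 1, 24 without Pa1F/F replicate 2, 21 without Pa1F/F replicate 3, 21 and 22 without Amh-pa1-/- replicates 1 and 2, and 41 without Amh-pa1-/- replicate 3. The share of all tested genes called moved likewise, to between 22.7% and 29.1% in the first 5 of these fits (21.6% to 24.7% of the members) and to 43.1% in the last (42.3% of the members). The call held in all 6 of these fits for 16 members: *Uhrf1*, *Dnmt1*, *Ezh2*, *Suz12*, *Cbx2*, *Cbx5*, *Kat2b*, *Kat14* and *Hdac7* among those higher, and *Kdm7a*, *Kdm4b*, *Kdm5b*, *Setd1b*, *Tet2*, *Sirt3* and *Hdac1* among those lower. For the other 21, the largest edgeR adjusted p with 1 library left out lay between 0.0512 and 0.149. With the closest libraries of each genotype summed, which left 2 against 2, edgeR called 6 members: *Uhrf1*, *Dnmt1*, *Ezh2*, *Kat2b*, *Hdac7* and *Kdm7a*, or 6.19% beside 8.66% of all tested genes. The direction of none of the 37 turned in any of the 14 alternative fits that tested it.

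**Figure D1:**
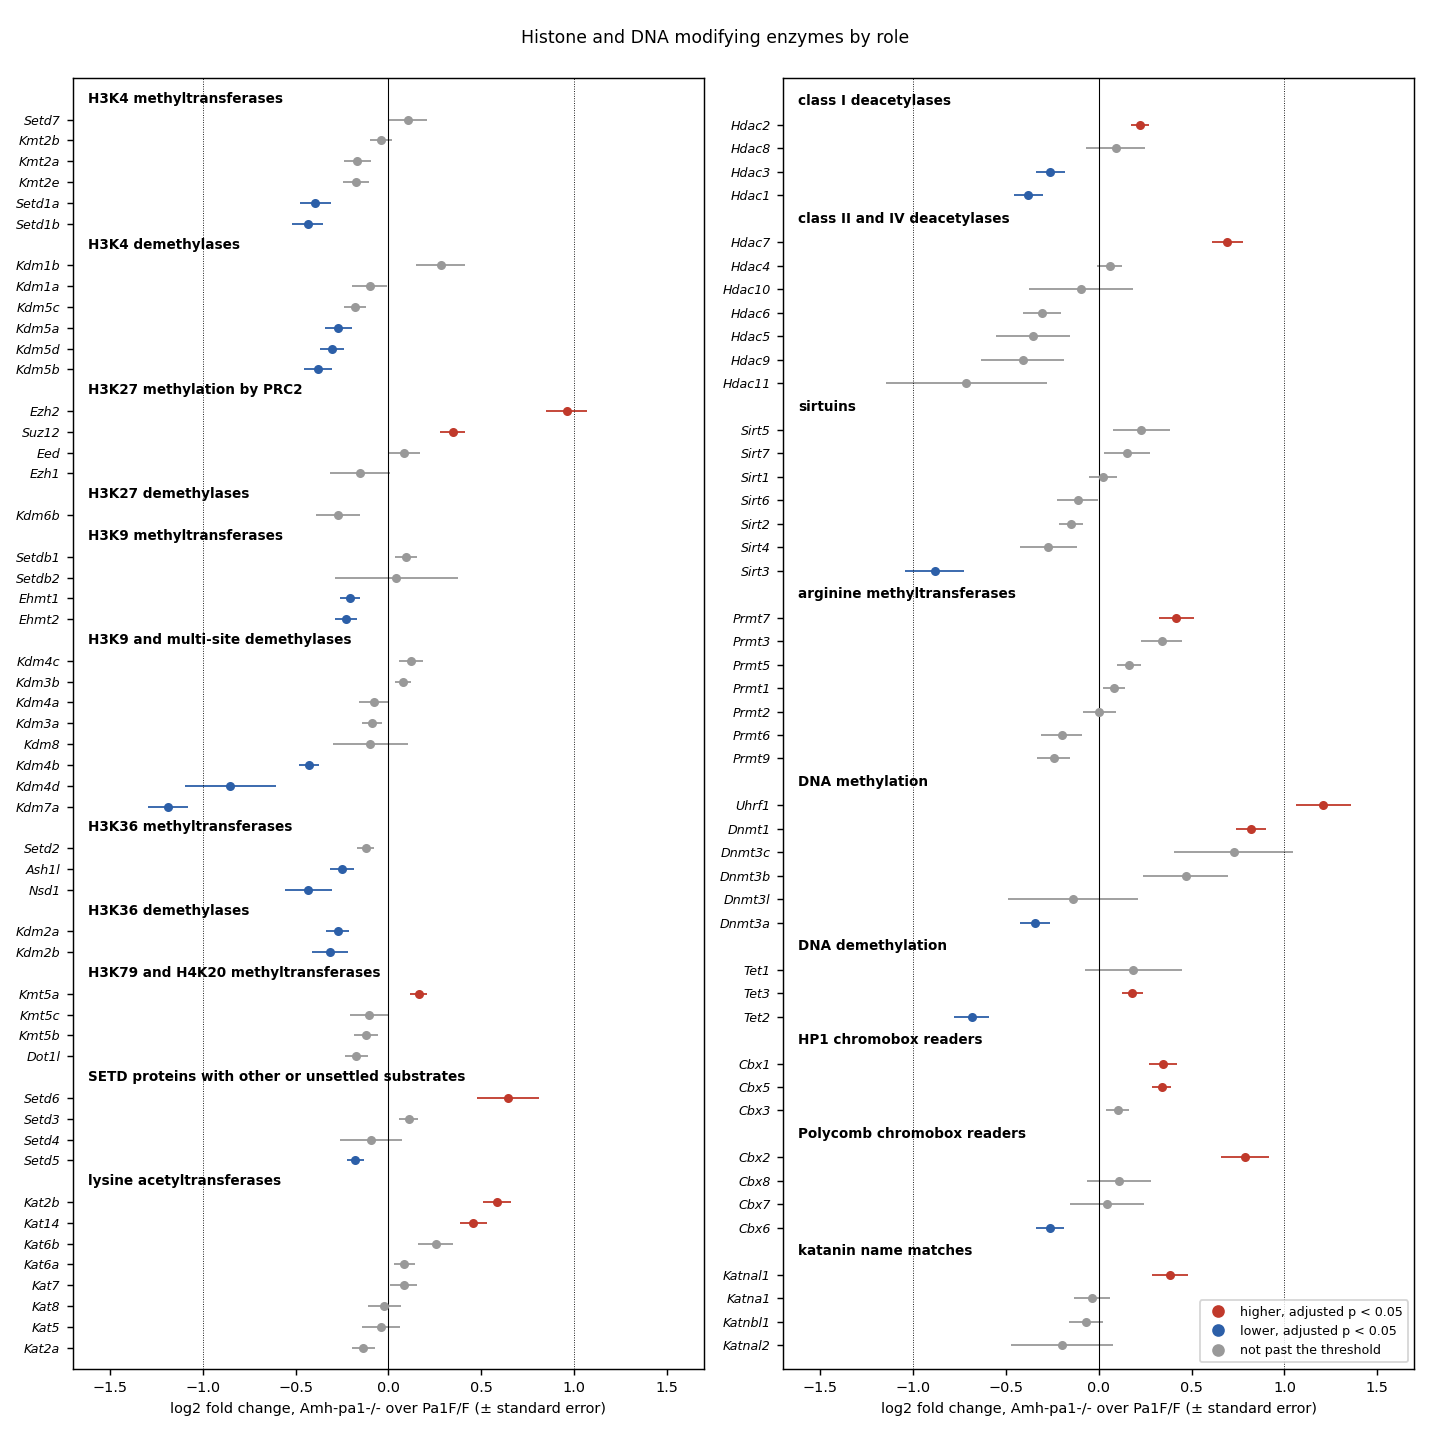
Log2 fold change of 95 of the 97 tested members, Amh-pa1-/- over Pa1F/F, grouped by role, with bars for the standard error. Red and blue points passed an adjusted p of 0.05 (16 higher, 21 lower), grey points did not, and dotted lines mark a log2 fold change of -1 and 1, which only *Uhrf1* and *Kdm7a* passed.

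Both genes for the maintenance of DNA methylation rose. *Uhrf1*, which recognises hemimethylated DNA after replication and recruits DNMT1, had 439, 576 and 468 normalized counts in Pa1F/F and 1042, 1039 and 1351 in Amh-pa1-/- libraries. The genotypes did not overlap, and *Uhrf1* (chromosome 17, 56303321 to 56323486, GRCm38) rose 2.31-fold (log2 fold change 1.21 ± 0.15 SE, edgeR adjusted p = 0.00148). *Dnmt1*, the maintenance methyltransferase itself, had 1425, 1575 and 1432 against 2455, 2486 and 2893 normalized counts. Every Amh-pa1-/- library lay above every Pa1F/F library, and *Dnmt1* (chromosome 9, 20907209 to 20959888) rose 1.77-fold (log2 fold change 0.82 ± 0.08 SE, edgeR adjusted p = 0.000722).

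Of the de novo methyltransferases none passed the test as higher. *Dnmt3a*, the abundant de novo enzyme of these cells, had 2936, 2611 and 3070 against 2101, 2298 and 2390 normalized counts, and so was lower in each Amh-pa1-/- library than in any Pa1F/F library (log2 fold change -0.34 ± 0.08 SE, edgeR adjusted p = 0.0163, up to 0.0704 with 1 library left out). *Dnmt3b* was scarce, with 37.2, 29.0 and 30.4 against 38.1, 55.2 and 41.1 normalized counts and an edgeR adjusted p of 0.154. *Dnmt3c*, its near-identical neighbour whose reads may be shared with it, and *Dnmt3l*, the catalytically inactive cofactor, did not pass the test, at adjusted p = 0.12 and 0.787 in edgeR. The DNA methylation group thus held 2 of 6 genes that rose (33.3%, beside 18.2% of all tested genes), 1 that fell (16.7%, beside 17.1%) and 3 that did not pass.

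Among the TET dioxygenases, *Tet2* had 581, 619 and 594 normalized counts in Pa1F/F and 343, 356 and 417 in Amh-pa1-/- libraries. The gap between the genotypes was wider than the spread within either of them, and *Tet2* (chromosome 3, 133463679 to 133545139) fell 1.61-fold (log2 fold change -0.68 ± 0.10 SE, edgeR adjusted p = 0.00246). *Tet3*, the most abundant of the family, had 3143, 3123 and 3060 against 3588, 3662 and 3310 normalized counts. Its rise was small (log2 fold change 0.18 ± 0.06 SE, edgeR adjusted p = 0.046) and passed in 2 of 14 alternative fits. *Tet1* was scarce, with 40.8, 31.0 and 29.4 against 36.1, 49.6 and 30.1 normalized counts, and overlapped between genotypes (edgeR adjusted p = 0.616).

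Of the 4 PRC2 genes in the set, *Ezh2* and *Suz12* rose and *Ezh1* and *Eed* did not pass. *Ezh2*, the H3K27 methyltransferase of dividing cells, had 433, 464 and 411 normalized counts in Pa1F/F and 851, 738 and 958 in Amh-pa1-/- libraries. The lowest Amh-pa1-/- value was far above the highest Pa1F/F value, and *Ezh2* (chromosome 6, 47530139 to 47595341) rose 1.95-fold (log2 fold change 0.96 ± 0.11 SE, edgeR adjusted p = 0.00121). *Suz12*, the scaffold subunit, named after its values were seen, had 1052, 1128 and 997 against 1294, 1339 and 1409 normalized counts (log2 fold change 0.35 ± 0.07 SE, edgeR adjusted p = 0.00844). *Eed*, which binds the methylated product, did not pass the test (edgeR adjusted p = 0.474). *Ezh1*, the alternative catalytic subunit that is typical of cells that do not divide, had 2001, 1808 and 2107 against 1893, 2092 and 1333 normalized counts. It was low in Amh-pa1-/- replicate 3 alone and did not pass the test (log2 fold change -0.15 ± 0.16 SE, edgeR adjusted p = 0.494). The group thus held 2 of 4 genes that rose (beside 18.2% of all tested genes) and none that fell (beside 17.1%), also at an unadjusted p under 0.05 in edgeR, DESeq2 and limma-voom. With so few genes little can be read from these shares, and with the closest libraries summed 1 of the 4 rose in edgeR.

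*Kdm6b*, the H3K27 demethylase in the set, had 1007, 965 and 943 against 894, 861 and 659 normalized counts. The genotypes did not overlap, but the difference did not pass the test (edgeR adjusted p = 0.118). Of the Polycomb chromobox proteins, which read methylated H3K27, *Cbx2* had 119, 95.9 and 109 against 179, 177 and 203 normalized counts. *Cbx2* (chromosome 11, 119022962 to 119031270) rose 1.73-fold without overlap (log2 fold change 0.79 ± 0.13 SE, edgeR adjusted p = 0.00477). *Cbx6* fell (log2 fold change -0.26, edgeR adjusted p = 0.0331, up to 0.127 with 1 library left out), and *Cbx7* and *Cbx8* did not pass, with log2 fold changes of 0.04 and 0.11. Of the HP1 proteins, which read methylated H3K9, *Cbx5* was the most abundant, with 4133, 4094 and 4016 against 5092, 5287 and 5095 normalized counts. All Amh-pa1-/- libraries were higher (log2 fold change 0.34 ± 0.05 SE, edgeR adjusted p = 0.00294). *Cbx1* rose by a similar amount, at an edgeR adjusted p of 0.0126 (0.0548 without Pa1F/F replicate 3), and *Cbx3* did not pass (adjusted p = 0.237).

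**Figure D2:**
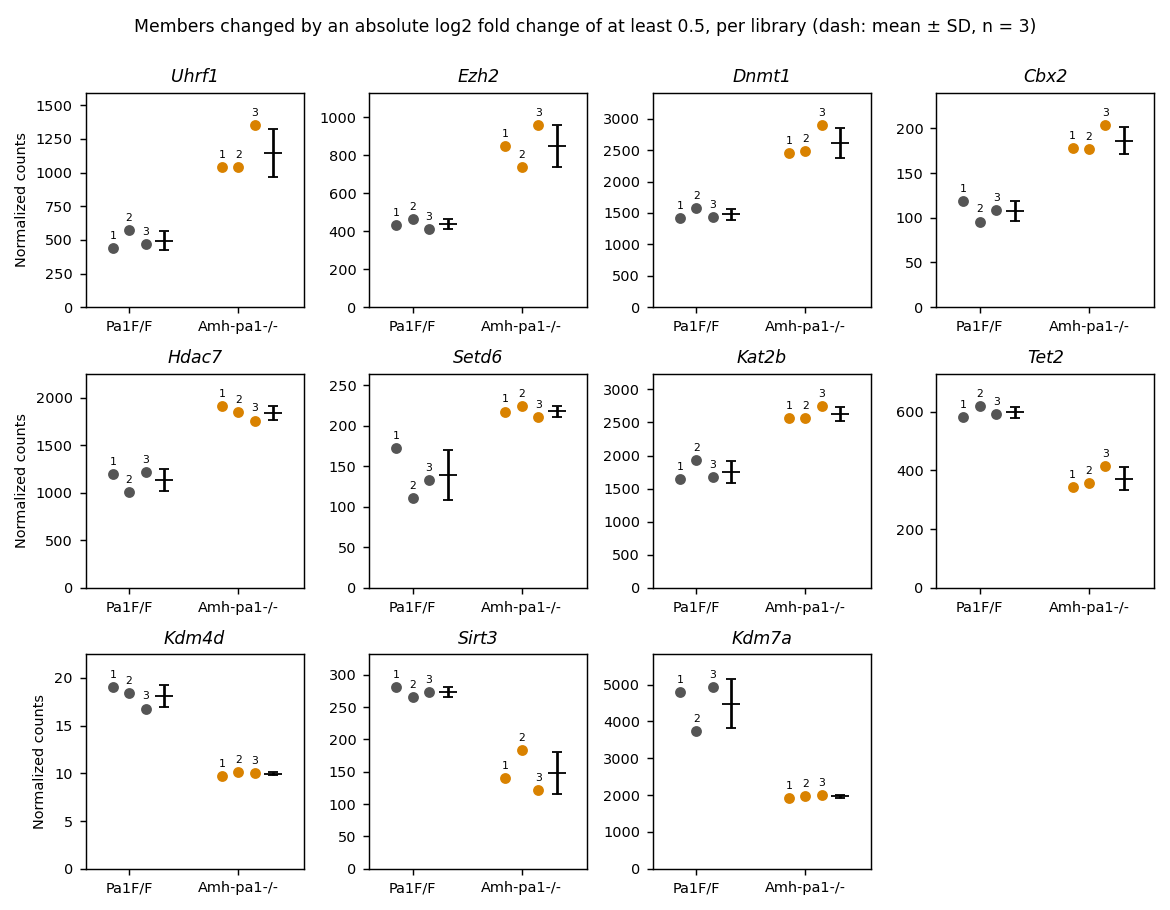
Normalized counts in each of the 6 libraries for the 11 members that were called and had a log2 fold change of 0.5 or more in size. Grey points are Pa1F/F and orange points Amh-pa1-/- libraries with the replicate number above, and the dash and bar give the mean and SD of 3 libraries. The genotypes overlap in none of the 11, where 52.4% of all tested genes have no overlap. The choice of the 11 by test and size favours this.

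The promoters of the members were read from RefSeq (GRCm38.p6), as windows from 250 bases before to 50 bases after an annotated start, and 77 of 98 members matched a window. Each was searched on both strands for the letters TTTGGCGC or TTTCCCGC, a form of the site of E2F factors of the cell cycle, and CCAAT, the box of NF-Y. TGACTCA, the site of AP-1, and TGACGTCA, the cAMP response element, were searched as well. The E2F letters stood in the windows of 3 of 15 higher members, *Ezh2*, *Suz12* and *Dnmt1*, in none of 13 lower members and in 3 of 48 that did not pass (*Kmt5c*, *Sirt4* and *Cbx3*), beside 1.80% of all 27025 genes with a window and 3.40% of the 10571 tested ones. CCAAT stood in 9 of 15 higher, 3 of 13 lower and 27 of 48 other members, beside 41.1% of all genes and 42.5% of the tested ones. The AP-1 letters stood in 2 higher members, *Kat2b* and *Hdac7*, in no lower member and in 4 others. They stood in 5.95% of all genes and 4.65% of the tested ones. The cAMP response element stood in 2 members that did not pass, beside 2.03% of all genes and 3.58% of the tested ones. These are matches of letters, not sites shown to be bound, and a gene with several starts had several windows.

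The windows with E2F letters of the 3 higher members, 1 of *Uhrf1*, the member that rose most, and that of *Kdm7a*, the member that fell most, are shown 5′ to 3′ on the strand of the gene, with every match in capitals. In *Ezh2* (chr6:47594981-47595280, minus strand) the E2F letters began 4 bases after the start, and CCAAT letters stood 90, 64 and 11 bases before it. In *Dnmt1* (chr9:20952574-20952873, minus strand) the E2F letters began 34 bases after this start, and at its 5′ end CCAATTGG reads as CCAAT on both strands. In *Suz12* (chr11:79992856-79993155, plus strand) they began 219 bases before the start. The *Uhrf1* window (chr17:56303087-56303386, plus strand) held CCAAT letters around its start and no E2F letters in these forms. A second *Uhrf1* window (chr17:56304063-56304362), not printed, held CCAAT letters 150 and 107 bases before its start. The *Kdm7a* window (chr6:39206724-39207023, minus strand) held no match.
Ezh2: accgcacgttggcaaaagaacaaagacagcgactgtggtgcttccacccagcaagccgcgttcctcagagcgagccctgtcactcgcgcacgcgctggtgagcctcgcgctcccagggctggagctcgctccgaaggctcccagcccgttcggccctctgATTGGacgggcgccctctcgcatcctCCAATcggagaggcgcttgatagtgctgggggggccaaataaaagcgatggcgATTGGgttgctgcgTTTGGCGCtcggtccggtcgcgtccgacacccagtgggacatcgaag
Dnmt1: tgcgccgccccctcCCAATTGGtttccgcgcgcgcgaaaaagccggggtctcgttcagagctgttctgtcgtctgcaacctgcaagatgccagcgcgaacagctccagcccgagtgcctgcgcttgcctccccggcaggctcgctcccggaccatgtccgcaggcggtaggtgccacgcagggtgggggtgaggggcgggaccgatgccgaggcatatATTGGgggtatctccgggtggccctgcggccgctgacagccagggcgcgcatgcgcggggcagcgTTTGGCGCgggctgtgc
Suz12: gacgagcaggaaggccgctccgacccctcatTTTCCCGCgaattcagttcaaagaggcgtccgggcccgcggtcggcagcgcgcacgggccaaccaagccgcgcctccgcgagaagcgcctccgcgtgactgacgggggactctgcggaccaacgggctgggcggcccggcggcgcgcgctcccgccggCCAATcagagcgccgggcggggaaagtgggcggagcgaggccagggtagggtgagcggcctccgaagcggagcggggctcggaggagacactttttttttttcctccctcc
Uhrf1: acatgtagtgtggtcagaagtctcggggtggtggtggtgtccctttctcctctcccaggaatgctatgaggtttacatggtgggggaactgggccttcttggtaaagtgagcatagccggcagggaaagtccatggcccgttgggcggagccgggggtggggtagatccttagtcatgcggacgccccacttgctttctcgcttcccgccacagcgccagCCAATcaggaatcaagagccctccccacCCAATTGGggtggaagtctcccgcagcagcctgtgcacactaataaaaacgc
Kdm7a: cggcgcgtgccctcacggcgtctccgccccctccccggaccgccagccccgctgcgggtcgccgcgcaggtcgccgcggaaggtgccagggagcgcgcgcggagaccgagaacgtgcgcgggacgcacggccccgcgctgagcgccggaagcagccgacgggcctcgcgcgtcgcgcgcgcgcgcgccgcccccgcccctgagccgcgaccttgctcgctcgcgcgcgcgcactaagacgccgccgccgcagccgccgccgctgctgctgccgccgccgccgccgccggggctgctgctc

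Transcripts of dividing cells were also higher in Amh-pa1-/- libraries. The summed level of 20 cell cycle genes, such as *Mki67*, *Top2a* and *Mcm2*, was 613, 812 and 619 CPM in Pa1F/F and 1212, 1231 and 1827 CPM in Amh-pa1-/- libraries. Of these 20 genes, 15 rose (75.0%, beside 18.2% of all tested genes) and none fell, also at an unadjusted p under 0.05 in edgeR, DESeq2 and limma-voom. With the closest libraries summed 6 of them rose in edgeR, and 15 did at an unadjusted p under 0.05. As a percent of that sum, *Uhrf1* was at 4.87, 4.83 and 5.14% in Pa1F/F and 5.84, 5.74 and 5.03% in Amh-pa1-/- libraries. *Dnmt1* was at 15.8, 13.2 and 15.7% against 13.8, 13.7 and 10.8%. *Ezh2* was at 4.80, 3.89 and 4.52% against 4.78, 4.08 and 3.56%. *Cbx2* was at 1.32, 0.80 and 1.20% against 1.0, 0.98 and 0.76%. Of the 16 higher members, this percent overlapped between genotypes in 6, these 4 with *Hdac7* and *Setd6*. In the other 10, such as *Suz12*, *Kat2b*, *Kat14*, *Hdac2* and *Cbx5*, the percent was lower in every Amh-pa1-/- library than in any Pa1F/F library, at 5.24 to 7.40% against 9.45 to 11.7% in the case of *Suz12*. The sum itself rose by 1.06 on the log2 scale, so a member that rose by clearly less had to have a lower percent. The split between the 6 and the 10 thus follows the size of the rise. The part of cell division in these changes was not tested.

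**Figure D3:**
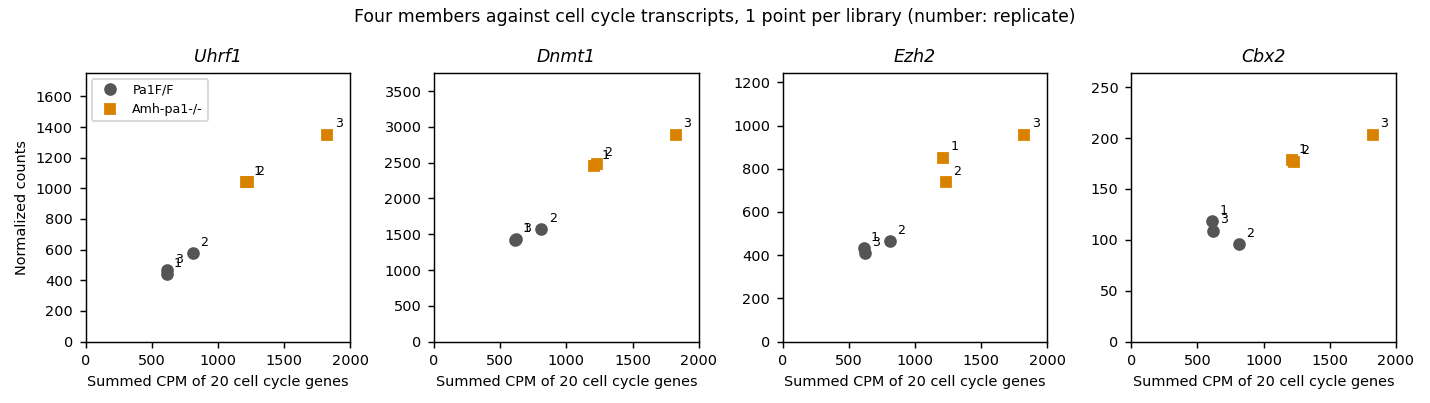
Normalized counts of *Uhrf1*, *Dnmt1*, *Ezh2* and *Cbx2* against the summed CPM of 20 cell cycle genes, with 1 point per library and the replicate number beside it. The Pa1F/F libraries lie at 613 to 812 CPM and low counts, the Amh-pa1-/- libraries at 1212 to 1827 CPM and high counts.

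Among the lysine demethylases the members that passed the test were lower. Of 17 *Kdm* genes, 8 fell (47.1%, beside 17.1% of all tested genes) and none rose, while 9 did not pass, with log2 fold changes from -0.27 to 0.28. The median over the 17 was -0.27. None rose at an unadjusted p under 0.05 in edgeR, DESeq2 or limma-voom on all libraries either, and 1 did in edgeR without Amh-pa1-/- replicate 1. DESeq2 called 6 lower, and edgeR called 4 lower without Pa1F/F replicate 2 or 3 or Amh-pa1-/- replicate 1 or 2, 5 without Pa1F/F replicate 1, 7 without Amh-pa1-/- replicate 3 and 1 with the closest libraries summed. *Kdm7a*, which removes methyl groups from H3K9 and H3K27, had 4789, 3733 and 4935 normalized counts in Pa1F/F and 1927, 1968 and 2012 in Amh-pa1-/- libraries. The 3 Amh-pa1-/- libraries lay close together and far below all controls, and *Kdm7a* (chromosome 6, 39136623 to 39206789) fell 2.28-fold (log2 fold change -1.19 ± 0.11 SE, edgeR adjusted p = 0.000554). It had the largest size of fall in the set. An antisense gene, *4930599N23Rik*, overlaps *Kdm7a*, with 104 counts in all 6 libraries against 19574 for *Kdm7a*.

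Of 6 H3K4 demethylases, 3 fell (beside 17.1% of all tested genes), *Kdm5a*, *Kdm5b* and *Kdm5d*, by 0.27 to 0.38 on the log2 scale. *Kdm5a*, with the most counts of the 6 but a lower level per kilobase than *Kdm1a*, had 3419, 3301 and 3416 against 2935, 2959 and 2515 normalized counts. The genotypes did not overlap (log2 fold change -0.27 ± 0.07 SE, edgeR adjusted p = 0.0288), although the adjusted p rose to as much as 0.1 with 1 library left out. *Kdm5b* passed without each library in turn (edgeR adjusted p = 0.0089, at most 0.0416), and *Kdm5d* failed without Amh-pa1-/- replicate 2 (0.0561). *Kdm5c* (adjusted p = 0.0527), *Kdm1a* and *Kdm1b* did not pass the test in edgeR.

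Both H3K36 demethylases fell (beside 17.1% of all tested genes). *Kdm2a* had 2786, 2962 and 2874 against 2414, 2516 and 2201 normalized counts, with no overlap (log2 fold change -0.27 ± 0.06 SE, edgeR adjusted p = 0.0165, up to 0.0608 without Pa1F/F replicate 3). *Kdm2b* fell by 0.32 on the log2 scale (edgeR adjusted p = 0.0447, up to 0.146 without Amh-pa1-/- replicate 2). It overlaps *Rnf34* on the opposite strand by 627 bases, and *Rnf34*, with 7025 counts against 1920, was itself lower (log2 fold change -0.45, edgeR adjusted p = 0.00517). The strand setting of the counting is not given in the sources used here, so reads of such a pair cannot be told apart.

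In the group that acts on H3K9 and other sites, *Kdm4b* had 1173, 1114 and 1169 against 844, 880 and 845 normalized counts. It fell without overlap (log2 fold change -0.43 ± 0.06 SE, edgeR adjusted p = 0.002). *Kdm4c* had 815, 843 and 884 against 960, 899 and 906, and did not pass (edgeR adjusted p = 0.182). *Kdm4d* was near the limit of detection, with 21, 19 and 16 raw counts against 10, 9 and 10. Its fall (log2 fold change -0.85 ± 0.24 SE, edgeR adjusted p = 0.0343) was lost with any library left out (0.0631 to 0.111). The adjusted p of *Kdm3a*, *Kdm3b*, *Kdm4a* and *Kdm8* lay between 0.193 and 0.74 in edgeR.

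Among the lysine methyltransferases most changes were small. Over the whole family of 23 genes, 3 rose, *Ezh2*, *Kmt5a* and *Setd6*, and 7 fell (13.0% and 30.4%, beside 18.2% and 17.1% of all tested genes). The 7 that fell were *Setd1a*, *Setd1b*, *Nsd1*, *Ash1l*, *Ehmt1*, *Ehmt2* and *Setd5*, by 0.18 to 0.44 on the log2 scale, and *Setd1b* alone among them kept its call without each library. In edgeR 2 were lower without Pa1F/F replicate 1, Pa1F/F replicate 3 or Amh-pa1-/- replicate 1, 3 without Amh-pa1-/- replicate 2, 4 without Pa1F/F replicate 2 and 8 without Amh-pa1-/- replicate 3, and 1 to 3 were higher. With the closest libraries summed 1 was higher, *Ezh2*, and 0 lower, where 3 were lower at an unadjusted p under 0.05 in edgeR, and DESeq2 and limma-voom on all libraries called 7 lower each. Of the H3K4 methyltransferases, *Kmt2a*, with the most counts but not the highest level per kilobase, had 2545, 2559 and 2660 against 2396, 2453 and 2065 normalized counts. Its values were lower in each Amh-pa1-/- library, though the difference did not pass (log2 fold change -0.17 ± 0.07 SE, edgeR adjusted p = 0.123). *Setd1a* and *Setd1b*, the catalytic subunits of the SET1 complexes that deposit most H3K4 trimethylation, fell by 0.39 and 0.44 on the log2 scale (edgeR adjusted p = 0.0122 and 0.00818), and *Setd1a* reached 0.0512 without Amh-pa1-/- replicate 1. *Kmt2b*, *Kmt2e* and *Setd7* did not pass.

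*Ehmt2*, which with *Ehmt1* sets mono- and dimethylation of H3K9, had 2535, 2749 and 2593 against 2221, 2127 and 2375 normalized counts. The groups did not overlap (log2 fold change -0.23 ± 0.06 SE, edgeR adjusted p = 0.0274, up to 0.116 without Amh-pa1-/- replicate 2). *Ehmt1* fell by a similar 0.21, and *Setdb1* and *Setdb2* did not pass. *Nsd1*, which methylates H3K36, had 3927, 3781 and 4091 against 3138, 3274 and 2342 normalized counts. Amh-pa1-/- replicate 3 was lowest (log2 fold change -0.43 ± 0.13 SE, edgeR adjusted p = 0.0354), and without it the adjusted p was 0.00296, while without Pa1F/F replicate 3 it was 0.109. *Ash1l* fell by 0.25 and overlaps *Dap3*, itself lower, by 560 bases. *Setd2*, which sets H3K36 trimethylation, did not pass (edgeR adjusted p = 0.0697).

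Among the writers of H3K79 and H4K20 methylation, *Dot1l*, the H3K79 methyltransferase, had 3225, 2857 and 3083 against 2649, 2837 and 2648 normalized counts. It had the most counts of this group in Pa1F/F, and *Kmt5a* in Amh-pa1-/- libraries. All Amh-pa1-/- values were below the controls, Amh-pa1-/- replicate 2 by a small margin, and the difference did not pass (edgeR adjusted p = 0.075). *Kmt5a*, the H4K20 monomethyltransferase of the cell cycle, rose by 0.16 (edgeR adjusted p = 0.0288, up to 0.109 without Pa1F/F replicate 1), and *Kmt5b* and *Kmt5c*, which add further methyl groups, did not pass. *Setd6*, which methylates RELA among other proteins, had 173, 111 and 133 against 218, 224 and 211 normalized counts. The controls were spread widely, and *Setd6* (chromosome 8, 95715881 to 95719010) rose 1.56-fold (log2 fold change 0.64 ± 0.17 SE, edgeR adjusted p = 0.0252, up to 0.0858 without Pa1F/F replicate 3).

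Of 8 lysine acetyltransferases, 2 rose (25.0%, near the 18.2% of all tested genes) and none fell (beside 17.1%), also at an unadjusted p under 0.05 in edgeR, DESeq2 and limma-voom. *Kat2b* (PCAF), which acetylates H3K9 and many transcription factors, had 1638, 1936 and 1681 normalized counts in Pa1F/F and 2570, 2564 and 2744 in Amh-pa1-/- libraries. The Amh-pa1-/- libraries lay close together above all controls, and *Kat2b* (chromosome 17, 53566861 to 53672720) rose 1.50-fold (log2 fold change 0.58 ± 0.08 SE, edgeR adjusted p = 0.0019). Its paralog *Kat2a* had 669, 701 and 668 against 628, 621 and 606 and did not pass (edgeR adjusted p = 0.135). *Kat14*, a subunit of the ATAC complex, rose by 0.46 (edgeR adjusted p = 0.00436), and the other 5, *Kat5*, *Kat6a*, *Kat6b*, *Kat7* and *Kat8*, had log2 fold changes between -0.04 and 0.26.

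Among the class II and class IV deacetylases 1 of 7 passed (14.3%, beside 35.3% of all tested genes). *Hdac7*, a class IIa enzyme that represses MEF2 target genes, had 1192, 1005 and 1213 against 1908, 1848 and 1758 normalized counts. No library overlapped, and *Hdac7* (chromosome 15, 97792664 to 97844502) rose 1.62-fold (log2 fold change 0.69 ± 0.08 SE, edgeR adjusted p = 0.00148). It shares 29 bases with *Slc48a1* on the opposite strand, which had a log2 fold change of 0.02. *Hdac9* was scarce, with 48.0, 42.6 and 61.9 against 43.0, 39.4 and 32.1 normalized counts, and did not pass (edgeR adjusted p = 0.197). *Hdac6*, the cytoplasmic tubulin deacetylase, just missed the threshold (log2 fold change -0.31, edgeR adjusted p = 0.0551). The AP-1 letters of *Kat2b* (chr17:53566721-53567020, plus strand) stood 240 bases before a start, and those of *Hdac7* (chr15:97814814-97815113, minus strand) 23 bases after a start, both on the opposite strand, so that they read TGAGTCA on the strand printed here. Both windows are shown as the higher members that hold these letters, and the other windows of each gene held none.
Kat2b: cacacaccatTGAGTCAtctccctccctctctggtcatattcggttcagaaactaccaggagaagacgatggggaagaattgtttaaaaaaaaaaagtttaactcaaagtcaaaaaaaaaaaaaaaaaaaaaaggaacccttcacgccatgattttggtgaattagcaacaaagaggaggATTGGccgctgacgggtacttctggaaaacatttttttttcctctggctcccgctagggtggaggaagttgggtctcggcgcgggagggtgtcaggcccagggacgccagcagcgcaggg
Hdac7: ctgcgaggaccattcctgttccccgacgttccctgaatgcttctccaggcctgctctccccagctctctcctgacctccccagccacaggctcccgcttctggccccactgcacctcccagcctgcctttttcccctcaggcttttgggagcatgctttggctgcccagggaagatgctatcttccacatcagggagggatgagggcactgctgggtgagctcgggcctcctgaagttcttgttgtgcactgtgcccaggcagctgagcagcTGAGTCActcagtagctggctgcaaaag

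The class I deacetylases *Hdac1* and *Hdac2*, which share the NuRD, Sin3 and CoREST complexes, went opposite ways. *Hdac1* had 913, 939 and 941 against 656, 709 and 782 normalized counts and fell (log2 fold change -0.38 ± 0.08 SE, edgeR adjusted p = 0.0107). *Hdac2*, the more abundant of them, had 1753, 1861 and 1873 against 2187, 2126 and 2086 and rose (log2 fold change 0.22 ± 0.05 SE, edgeR adjusted p = 0.0149). Neither gene overlapped between genotypes, and the call of *Hdac2* failed without Pa1F/F replicate 1 (0.0691) and without Amh-pa1-/- replicate 1. *Hdac3* fell by 0.26 (edgeR adjusted p = 0.0378, up to 0.144 without Amh-pa1-/- replicate 2) and lost its call when sequencing depth alone scaled the libraries, and *Hdac8* did not pass.

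Of 7 sirtuins, *Sirt3*, the NAD-dependent deacetylase of mitochondria, was the member that passed (14.3%, beside 35.3% of all tested genes and 17.1% lower). It had 281, 265 and 274 normalized counts in Pa1F/F and 140, 184 and 121 in Amh-pa1-/- libraries. The genotypes were well apart, and *Sirt3* (chromosome 7, 140863666 to 140882309) fell 1.85-fold (log2 fold change -0.89 ± 0.16 SE, edgeR adjusted p = 0.00641). It overlaps *Ric8a* by 707 bases and *Psmd13* by 342 bases, both on the opposite strand and with more counts (4577 and 8060 against 1272), and both were higher, by 0.21 and 0.22 on the log2 scale. The value of *Sirt3* is uncertain to that extent. The other 6 sirtuins had log2 fold changes between -0.27 and 0.23.

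Of the 7 arginine methyltransferases tested, 1 passed (14.3%, beside 35.3% of all tested genes and 18.2% higher), and *Prmt7* rose by 0.42 (edgeR adjusted p = 0.0144, 0.0568 without Pa1F/F replicate 1). *Prmt1*, which deposits most asymmetric dimethylarginine, was the most abundant, with 1399, 1471 and 1316 against 1483, 1520 and 1426 normalized counts, and overlapped between genotypes (edgeR adjusted p = 0.336). The other 5 did not pass, *Prmt3* narrowly (adjusted p = 0.0507 in edgeR). Of the 5 katanin genes 1 passed (20.0%), and *Katnal1* rose by 0.38 (edgeR adjusted p = 0.0229, up to 0.0844 without Pa1F/F replicate 1). *Katnbl1*, the most abundant of them, had 505, 423 and 479 against 440, 468 and 433 normalized counts, with an edgeR adjusted p of 0.586.

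The balance between paralogs was then compared within each library, a ratio that does not depend on how libraries are scaled to each other. Of 24 pairs of related members, 11 had log2 ratios that did not overlap between genotypes, with a prior count of either 0.5 or 3, a background of 52.4% over all tested genes applying to single genes rather than ratios. In an exact two-sided permutation test with 3 libraries against 3, the smallest p possible is 0.1, which became 0.218 after Benjamini-Hochberg adjustment over the 24 pairs, so no pair could pass. In 9 of the 11 pairs the paralogs had log2 fold changes of opposite sign.

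*Ezh1* to *Ezh2* and *Hdac7* to *Hdac9* had the widest shifts, which did not differ from each other beyond their spread. The log2 ratio of *Ezh1* to *Ezh2* counts was 2.21, 1.96 and 2.36 in Pa1F/F and 1.15, 1.50 and 0.48 in Amh-pa1-/- libraries. Amh-pa1-/- replicate 3 was lowest, and the mean went from 2.17 ± 0.20 to 1.04 ± 0.52 (SD, n = 3 each). Per kilobase of exon, the level of *Ezh1* was 3.57 times that of *Ezh2* in Pa1F/F and 1.65 times in Amh-pa1-/- cells. *Hdac7* to *Hdac9* went from 4.48 ± 0.18 to 5.58 ± 0.16 on the log2 scale of counts.

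*Tet2* to *Tet3* went from -2.38 ± 0.05 to -3.25 ± 0.22, and per kilobase *Tet3* was 5.53 times the level of *Tet2* in Pa1F/F and 10.1 times in Amh-pa1-/- cells. *Tet1* to *Tet2* went from -4.14 ± 0.28 to -3.28 ± 0.47, with the scarce *Tet1* as the less certain member. *Dnmt3a* to *Dnmt3b* went from 6.46 ± 0.17 to 5.66 ± 0.26. The acetyltransferase ratio *Kat2a* to *Kat2b* went from -1.36 ± 0.09 to -2.09 ± 0.08, so that *Kat2b* was 2.23 and 3.67 times the level of *Kat2a* per kilobase. *Hdac1* to *Hdac2* went from -0.97 ± 0.03 to -1.58 ± 0.16, and *Kdm4b* to *Kdm4c* from 0.44 ± 0.07 to -0.11 ± 0.08. Of these 9 pairs *Kdm3a* to *Kdm3b* shifted least, from -0.39 ± 0.07 to -0.56 ± 0.02. *Kdm3a*, an H3K9 demethylase, had 1550, 1429 and 1534 against 1416, 1419 and 1406 normalized counts, and *Kdm3b* had 1974, 1988 and 1966 against 2061, 2099 and 2105. Neither of those genes passed the test alone (edgeR adjusted p = 0.227 and 0.193).

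The other 2 pairs, *Kdm4a* to *Kdm4b* and *Cbx2* to *Cbx7*, did not overlap either, but their fold changes had the same sign. The 13 pairs that overlapped included *Setd1a* with *Setd1b*, *Kdm2a* with *Kdm2b*, *Ehmt1* with *Ehmt2* and *Cbx1* with *Cbx5*. In these 4 pairs the mean log2 ratio differed between genotypes by 0.01 to 0.04.

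**Figure D4:**
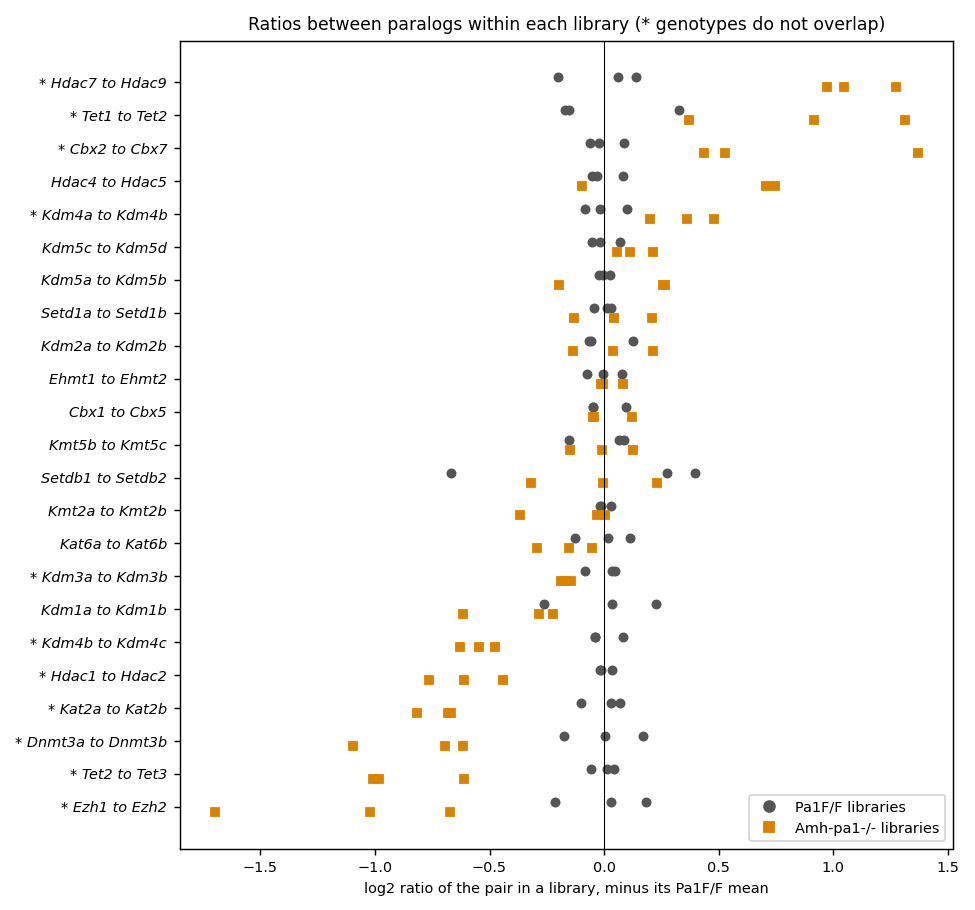
Log2 ratio of 23 of the 24 pairs of paralogs in each library, minus the mean of the 3 Pa1F/F libraries for that pair. Grey circles are Pa1F/F and orange squares Amh-pa1-/- libraries, an asterisk marks the 11 pairs whose genotypes do not overlap, and *Ezh1* to *Ezh2* lies farthest to the left.

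On a scale of CPM per kilobase of exon, which allows genes to be set against each other, the median member stood at 6.68 in Pa1F/F and 6.41 in Amh-pa1-/- cells. *Hdac6* was first in Pa1F/F, at 45.1 ± 0.31 (SD, n = 3). In Amh-pa1-/- cells *Hdac6* (36.5 ± 5.30), *Kat2b* (35.2 ± 1.37) and *Cbx5* (33.9 ± 0.73) had the 3 highest means and did not differ beyond their spread. In Pa1F/F *Hdac6* was followed by *Ehmt2* (31.0), *Kdm4a*, *Cbx5* (26.9 ± 0.39) and *Kdm7a* (26.0 ± 3.81), and the last 3 of these did not differ beyond their spread. *Kdm7a* went from rank 5 to rank 25, at 11.4 ± 0.25 in Amh-pa1-/- cells. *Kat2b* rose from rank 6, at 23.5 ± 2.16, to these first 3, and *Dnmt1* from rank 24 to rank 9 (11.8 ± 0.68 to 20.9 ± 1.95). At the low end, 9 members had under 50 normalized counts: *Dnmt3b*, *Dnmt3c*, *Dnmt3l*, *Hdac9*, *Hdac11*, *Katnal2*, *Kdm4d*, *Kdm8* and *Tet1*.

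Other genes of the same pathways, which the name rule does not take, showed a like share of calls. Of 72 listed, 70 were tested, 10 rose and 18 fell (40.0%, beside 35.3% of all tested genes; 14.3% and 25.7% by direction, beside 18.2% and 17.1%). With the closest libraries summed 3 rose and 0 fell in edgeR, where 13 were lower at an unadjusted p under 0.05; DESeq2 and limma-voom on all libraries called 17 and 18 lower. Only *Smyd1*, a methyltransferase of striated muscle, passed both thresholds, with 19.0, 8.71 and 10.5 against 74.2, 65.3 and 157 normalized counts. Its level was low in Pa1F/F and varied among Amh-pa1-/- libraries (log2 fold change 2.94 ± 0.47 SE, edgeR adjusted p = 0.00399). *Aebp2*, an accessory subunit of PRC2, had 1909, 2025 and 1797 against 3141, 2956 and 2753 and rose with its catalytic partner *Ezh2* (log2 fold change 0.63 ± 0.07 SE, edgeR adjusted p = 0.00116). *Nsd2*, an H3K36 dimethyltransferase and paralog of *Nsd1*, had 1293, 1256 and 1289 against 1754, 1912 and 2078 and rose (log2 fold change 0.58 ± 0.07 SE, edgeR adjusted p = 0.00151). *Sin3b*, the scaffold of a deacetylase complex, had 9631, 10269 and 9565 against 6857, 6952 and 7606 and fell (log2 fold change -0.46 ± 0.07 SE, edgeR adjusted p = 0.00313). The genotypes did not overlap in any of these 4 genes.

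By group, 4 of 7 demethylases without a *Kdm* name fell (57.1%, beside 17.1% of all tested genes; *Hr*, *Jmjd6*, *Jmjd1c* and *Phf2*, by 0.28 to 0.69 on the log2 scale) and none rose, also at an unadjusted p under 0.05 in edgeR, DESeq2 and limma-voom. The 4 became 2 without Pa1F/F replicate 1 and 0 with the closest libraries summed, where 3 had an unadjusted p under 0.05 in edgeR. All 5 other acetyltransferases passed the test, beside 35.3% of all tested genes: *Ep300*, *Crebbp*, *Ncoa1* and *Ncoa3* fell by 0.27 to 0.32, and *Hat1*, which acetylates new histone H4 before it is deposited, rose by 0.63. With the closest libraries summed, those that fell lost their call in edgeR. PRC1 and the H2A deubiquitinase had 3 of 15 higher and 3 lower (20.0% each), and the other PRC2 subunits 1 of 8 higher and 1 lower (12.5% each), shares near or under the 18.2% and 17.1% of all tested genes. The deacetylase complexes had 2 of 15 higher and 5 lower (13.3% and 33.3%). Readers of DNA methylation and repair enzymes had 1 of 8 higher and 1 lower (12.5% each), and of 12 other histone methyltransferases *Smyd1* and *Nsd2* rose (16.7%) and none passed as lower.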

How the data were processed

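RNA-seq of purified Sertoli cells was analysed in 6 libraries, 3 per genotype, grouped by their labels. Per the paper's methods, Trizol was used to extract RNA and a NEBNext Ultra kit to build libraries for Illumina sequencing. Reads were aligned by the authors with HISAT2 (2.1.0) to the GRCm38 genome. Their reads per gene from HTSeq (0.6.0) were deposited as raw counts. The deposited table also holds the authors' own comparison (means, fold changes, p-values), which was not used. The strand setting is not given in the sources used here.

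Counts were filtered with filterByExpr (minimum count 10, minimum total 15), scaled by TMM (factors 0.990 to 1.03) and compared with the quasi-likelihood F-test of edgeR 4.0.16 in R 4.3.3, with Benjamini-Hochberg adjustment over all 14919 tested genes. Standard errors are the log2 fold change divided by the square root of F. A gene was called at an adjusted p under 0.05; the study's second threshold, an absolute log2 fold change of 1, was reported as well. On simulated counts with 200 genes changed by 1 on the log2 scale among 14664, 66.5% of them were called, and 5.67% of calls were false. Few genes changed there and libraries were drawn as independent, while 35.3% of tested genes were called in the data. These rates may therefore not hold for the data.

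The rule for the members uses gene names alone, but the rule, gene lists and tests were chosen with earlier results of these data known. Values in every library are given for members called with a log2 fold change of 0.5 or more in size, and, in role groups with none, for the member with the most counts. They are also given for pairs of paralogs with opposite signs whose ratios did not overlap, and, of the other chromatin genes, for those past both thresholds and the 3 with the smallest adjusted p. Of the members, 2 that did not pass the test entered all counts but are not reported here by name. Paralog ratios used a prior count of 0.5 and an exact two-sided permutation test. Levels per kilobase used exon lengths of GENCODE vM39, matched by gene identifier. The methods describe biological replicates, but Pa1F/F replicates 1 and 3 and Amh-pa1-/- replicates 1 and 2 were closer to each other (r = 0.994 each) than to the third library (0.976 to 0.982), and p-values measure the spread between these samples. Alternatives were DESeq2 1.42.0, limma-voom 3.58.1, other size factors and filters, a replicate block, each library left out, and the closest libraries of each genotype summed. Without molecular identifiers, counts are not independent molecules.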

Additional observations from a re-analysis of the deposited data

How the results depend on the processing

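DESeq2 size factors, library size alone, DESeq2's Wald test, limma-voom and a minimum of 10 counts in every library left 15 to 17 members higher and 19 to 22 lower (16 and 21 in the report). These fits called 36.1% to 38.9% of the members, beside 34.7% to 35.8% of all tested genes. Without a filter 14 were higher and 13 lower, or 27.6% of the members, beside 18.4% of all 28262 genes. With the closest libraries of each genotype summed, which leaves 2 libraries per genotype, 5 were higher and 1 lower, and these 6 members were called in every alternative. With 1 library left out the members higher numbered 11 to 18, those lower 9 to 23, and those past both thresholds 2 to 4 (with *Ezh2* and *Sirt3* added without Amh-pa1-/- replicate 2); the median log2 fold change of the members ranged from -0.0725 to -0.0167. Of the other chromatin genes, 10 higher became 3 with libraries summed and 4 to 10 with 1 left out. Their 18 lower became 11 without a filter and 8 to 19 with 1 left out. With libraries summed 0 of them passed as lower in edgeR, where 13 had an unadjusted p under 0.05, while DESeq2 and limma-voom on all libraries called 17 and 18. The cause of these differences was not tested beyond the smaller number of samples. Paralog ratios gave 11 pairs under both prior counts.

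With the replicate number as a block, 12 members were higher and 11 lower, all 23 among the 37 called without the block, and 3802 of all genes were called against 5266. Same-numbered libraries deviated together only for replicate 1 (correlations 0.108, -0.164 and -0.179). Libraries with unlike numbers had correlations from -0.173 to 0.214, so the numbers were not taken to pair the samples. Depth limits the 9 members under 50 normalized counts.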

Other observations

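Several members differed among libraries of the same genotype by more than between genotypes. *Hdac5*, a class IIa deacetylase, had 671 and 673 normalized counts in Amh-pa1-/- replicates 1 and 2 and 1104 in replicate 3, where the Pa1F/F libraries had 1087, 964 and 1080. It did not pass the edgeR test (adjusted p = 0.207) and was called without Amh-pa1-/- replicate 3. *Hdac6* had 3561 and 3747 in those libraries and 4643 in replicate 3, against 4950, 4887 and 4940 in Pa1F/F, and was also called without it. In both genes replicate 3 was nearer to the controls than the other Amh-pa1-/- libraries were.

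Other members departed in replicate 3 without being called. *Cbx7*, a Polycomb reader, had 233 and 247 normalized counts in Amh-pa1-/- replicates 1 and 2 and 148 in replicate 3, against 184 to 215 in Pa1F/F. *Cbx8*, its relative, had 146 and 126 against 192 in replicate 3. Amh-pa1-/- replicate 3 was the library farthest from the other libraries of its genotype for 52 of 97 members (53.6%), beside 60.8% of all tested genes.

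Among the controls, Pa1F/F replicate 2 was farthest for 54 of 97 members (55.7%), beside 48.3% of all tested genes. *Setdb2*, an H3K9 methyltransferase, had 326 normalized counts there and 142 and 157 in Pa1F/F replicates 1 and 3. *Hdac10*, a polyamine deacetylase, had 176 there and 99.7 and 94.4 in replicates 1 and 3. Both were again higher in Amh-pa1-/- replicate 3 (258 and 142) than in Amh-pa1-/- replicates 1 and 2 (208 and 178 for *Setdb2*, 102 and 101 for *Hdac10*).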
